A study of Mus musculus with 6 samples.

Results

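The genes described here are the cadherins, unclustered protocadherins and contactins of the mouse, with their near relatives: the contactin-associated proteins, the Celsr and Fat cadherins and the desmosomal cadherins. They were chosen by name: a symbol in any of the 4 deposited gene tables that begins with Cdh, Pcdh, Cntn, Cntnap, Celsr, Fat, Dsc or Dsg directly followed by a number. This gave 46 of the 18778 genes in the tables: 18 cadherins, 10 protocadherins, 6 contactins, 4 contactin-associated genes, 3 Celsr genes, 4 Fat genes and 1 desmosomal cadherin, Dsg2. A further 19 RefSeq symbols that fit the rule, among them Cdh3, Cdh9, Cdh12, Cntnap4, all 3 Dsc genes and Pcdh20, do not appear in the 4 tables and were not analysed here.

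The neurons were differentiated neuronal progeny at day 11, sorted as positive for RedStar, a red fluorescent protein driven by the promoter of Tau (Mapt), the gene of an axonal microtubule protein. The neural stem cells (NSCs) were the day 0 cells, RedStar negative, from which the neurons were made over 4 days in a medium with reduced growth factor and 7 days in a second medium. Both were C57BL/6, had been derived from mouse embryonic stem cells and were at passages 25 to 30. Chromatin was precipitated with antibodies to H3K4me3 and H3K27me3, with 1 library per antibody and cell type and 1 input per cell type. There is therefore no replicate behind any difference below, and none could be tested; each is the presence, absence or width of a called peak.

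Cadherins are calcium-dependent adhesion proteins that bind the same cadherin on the neighbouring cell and, in the classical members, couple through catenins to actin. Protocadherins share the extracellular repeats but mostly lack the catenin-binding tail, and the unclustered ones are scattered genes with roles in axon growth and synapse formation. Contactins are immunoglobulin-type, lipid-anchored axonal proteins that pair with contactin-associated proteins along myelinated axons. H3K4me3 lies at active or poised promoters, H3K27me3 is deposited by Polycomb repressive complex 2, and promoters that carry both in stem cells are often called bivalent.

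The promoters of 6 genes on which the results turn are shown so that their base composition can be seen beside their marks. Cdh8 is the member with H3K4me3 called in neurons alone. Cdh18 had H3K27me3 in neurons alone. Pcdh10 had the widest single H3K4me3 peak. Celsr3 kept both marks, with H3K27me3 broken at the start site in neurons. Pcdh15 had H3K27me3 at its start site in NSCs alone, and Cntn2 had the widest H3K27me3 domain. The sequences run from 250 bases before to 50 bases after the RefSeq start on GRCm38.p6, and capitals mark each CG dinucleotide, which reads the same on both strands. The peaks are on the older build mm9, so it was not shown that these RefSeq starts are the start sites scored.
Cdh8, chr8:99416422-99416721, minus strand: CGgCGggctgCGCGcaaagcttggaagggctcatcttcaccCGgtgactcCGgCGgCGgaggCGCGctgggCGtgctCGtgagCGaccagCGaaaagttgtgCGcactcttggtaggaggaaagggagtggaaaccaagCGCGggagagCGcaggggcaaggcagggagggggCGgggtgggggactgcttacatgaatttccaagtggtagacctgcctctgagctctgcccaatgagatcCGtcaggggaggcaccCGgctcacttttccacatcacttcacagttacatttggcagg
Cdh18, chr15:23036213-23036512, plus strand: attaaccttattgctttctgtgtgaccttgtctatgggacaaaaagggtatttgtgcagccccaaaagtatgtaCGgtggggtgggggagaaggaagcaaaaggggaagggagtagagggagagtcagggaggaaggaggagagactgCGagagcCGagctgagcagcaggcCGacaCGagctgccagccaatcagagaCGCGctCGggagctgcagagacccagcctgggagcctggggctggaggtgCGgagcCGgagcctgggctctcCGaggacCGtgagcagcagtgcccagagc
Pcdh10, chr3:45378148-45378447, plus strand: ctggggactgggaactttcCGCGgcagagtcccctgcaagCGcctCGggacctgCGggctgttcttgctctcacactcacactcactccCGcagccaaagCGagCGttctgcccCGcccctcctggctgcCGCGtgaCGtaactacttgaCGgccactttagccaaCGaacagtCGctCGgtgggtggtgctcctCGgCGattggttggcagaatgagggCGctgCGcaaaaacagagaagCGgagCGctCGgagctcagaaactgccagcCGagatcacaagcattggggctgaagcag
Celsr3, chr9:108825795-108826094, plus strand: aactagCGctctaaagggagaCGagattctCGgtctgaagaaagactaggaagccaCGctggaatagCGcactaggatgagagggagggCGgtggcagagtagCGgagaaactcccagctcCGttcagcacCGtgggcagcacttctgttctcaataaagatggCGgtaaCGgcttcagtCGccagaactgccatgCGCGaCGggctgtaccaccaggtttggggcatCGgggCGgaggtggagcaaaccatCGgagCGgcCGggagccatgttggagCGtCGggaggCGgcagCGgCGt
Pcdh15, chr10:73821617-73821916, plus strand: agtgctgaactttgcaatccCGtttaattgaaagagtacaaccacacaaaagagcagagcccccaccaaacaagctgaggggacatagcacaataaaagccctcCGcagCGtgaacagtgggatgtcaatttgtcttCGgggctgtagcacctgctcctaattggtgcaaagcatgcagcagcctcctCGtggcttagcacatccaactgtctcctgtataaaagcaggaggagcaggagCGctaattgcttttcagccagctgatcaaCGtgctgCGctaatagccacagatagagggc
Cntn2, chr1:132542891-132543190, minus strand: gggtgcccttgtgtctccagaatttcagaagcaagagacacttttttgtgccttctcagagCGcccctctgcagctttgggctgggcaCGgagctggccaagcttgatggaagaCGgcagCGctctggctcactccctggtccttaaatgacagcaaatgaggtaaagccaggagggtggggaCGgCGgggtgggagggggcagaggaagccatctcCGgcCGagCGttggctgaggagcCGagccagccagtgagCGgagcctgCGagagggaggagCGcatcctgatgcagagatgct

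Celsr3 had 25 CG dinucleotides in its 300 bases, Pcdh10 had 24 and Cdh8 had 21, whereas Cntn2 had 13, Cdh18 had 12 and Pcdh15 had 8. The median was 20 over the 9997 genes of the deposited tables that matched, so the first 3 lay above it and the last 3 below. Over all 32851 promoters of that length in the RefSeq table, 94.6% of which hold at least 1, it was 7. Only 32 of the 46 members (69.6%) and 9997 of the 18778 genes (53.2%) matched the table. A comparison of CG content between marked and unmarked members would therefore be incomplete, and none is given here.

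A gene was scored as marked when any peak of the full list lay within 1000 bp of its start site. H3K4me3 marked 26 members in neurons (56.5%) and 29 in NSCs (63.0%), against 61.7% of all genes in neurons and 70.4% in NSCs. H3K27me3 marked 13 members in neurons (28.3%) and 20 in NSCs (43.5%), against 17.9% of all genes in neurons and 19.2% in NSCs. Both marks stood together at 8 members in neurons (17.4%; all genes 4.59%) and 14 in NSCs (30.4%; all genes 8.53%). The members' share with H3K4me3 was thus a little under that of all genes in each cell type, and their share with H3K27me3 or with both marks was above it.

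The members are long genes, with a median of 146 kb against 15.6 kb for all genes, and 29 of them (63.0%, all genes 11.7%) exceed 100 kb. Among the other genes over 100 kb, H3K27me3 marked 21.8% in neurons and 23.3% in NSCs, and both marks 10.7% in neurons and 16.2% in NSCs. The members' shares lie above these as well. At 9 of the 36 members with any start-site peak, such a peak also held the start of another gene of the tables, and there the marks cannot be assigned to one of the genes. The other gene is A330008L17Rik at Cdh8, Plekhh3 at Cntnap1 and Gm9748 at Pcdh8, and one without a symbol at Cdh10, Fat4, Pcdh7, Pcdh10, Pcdh15 and Pcdh19. A chromatin state at the start site that was the same in neurons and NSCs was found for 30 members (65.2%), against 82.4% of all genes. These shares are not matched for the state in NSCs. Over all genes, 88.7% of those with H3K4me3 alone in NSCs kept their state and 36.9% of those with both marks did. More of the members had both in NSCs (30.4%, all genes 8.53%).

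**Figure D1:**
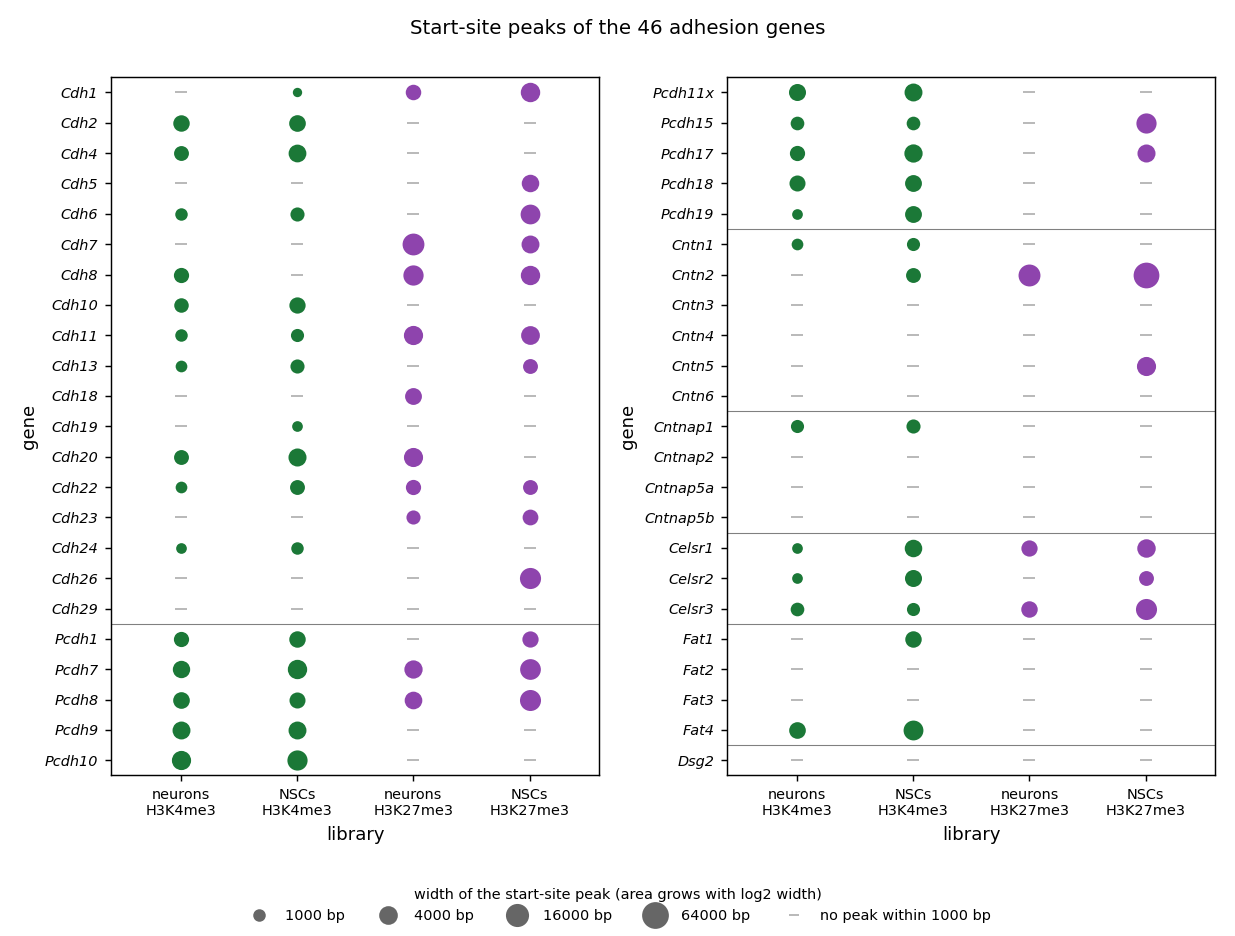
Start-site peaks of the 46 genes, grouped by family and listed down the page, in the neuron and NSC libraries of each mark (columns). Each dot is a called peak within 1000 bp of the start site, its area growing with log2 of the peak's width in bp, and a dash is no such peak: all 10 protocadherins have an H3K4me3 dot in both cell types, and 10 genes have dashes throughout.

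The libraries differed in ways that touch these counts. Reads inside called peaks numbered 983266 in the neuron H3K4me3 library and 3623654 in the NSC one, and 3161819 and 3272324 in the neuron and NSC H3K27me3 libraries. For 397 H3K4me3 peaks called with identical bounds in neurons and NSCs, the ratio of neuron to NSC immunoprecipitated (IP) reads was 0.399 and that of input reads 0.775, whereas for 114 such H3K27me3 peaks the IP ratio was 0.981. Input reads inside neuron H3K4me3 peaks were denser on chromosome 1 (13.1 per kb) than on the other autosomes (10.0 per kb), and likewise in the 3 other libraries. Chromosome 1 holds Cdh7, Cdh19, Cdh20, Cntn2, Cntnap5a and Cntnap5b. As a check of the cell labels, H3K4me3 marked all 4 scored neuronal marker genes in neurons and 2 in NSCs (Dcx and Stmn3 being marked in neurons alone), and H3K27me3 marked none of them in neurons and 3 in NSCs. The 6 NSC markers, Nes, Sox2, Hes5, Olig2, Fabp7 and Pax6, all carried H3K4me3 in the neurons too, and 5 of them did in NSCs, so start-site H3K4me3 did not separate NSC-marker genes between the cell types. Of the markers of other cells, H3K4me3 lay at 0 of 6 scored in neurons and at S100b, Kdr and Epcam in NSCs, and no embryonic stem cell marker could be scored.

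**Figure D2:**
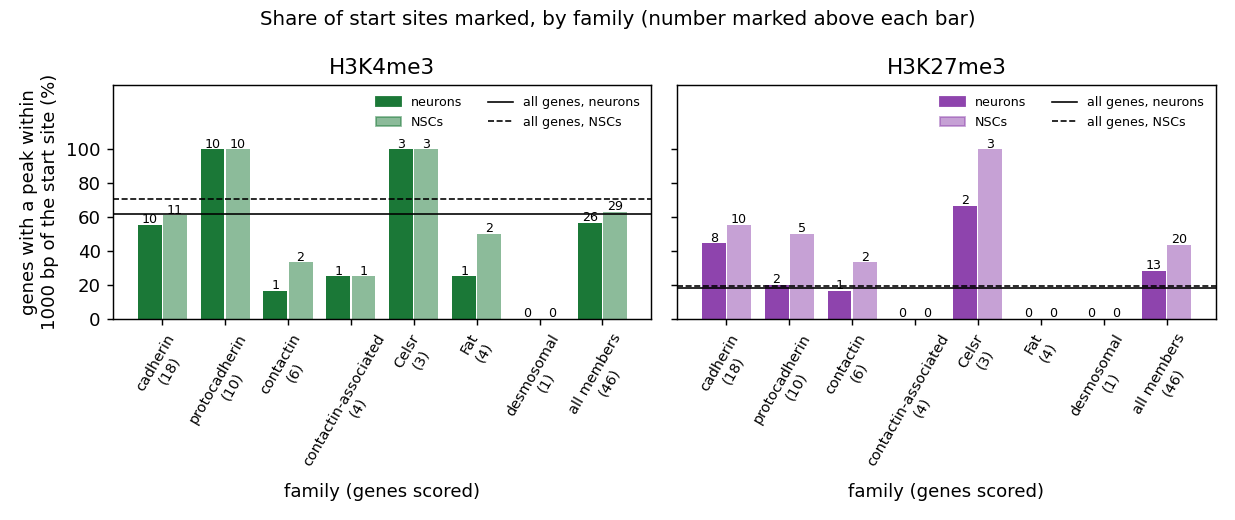
Percentage of start sites with an H3K4me3 peak (left) or an H3K27me3 peak (right), by family, with dark bars for neurons, pale bars for NSCs, the number of genes marked above each bar and lines at the share of all 18778 genes. Protocadherins and Celsr genes reach 100% for H3K4me3 in both cell types, while the contactin-associated, Fat and desmosomal genes have no H3K27me3 bar in either.

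All 10 scored protocadherins were marked with H3K4me3 in neurons (all genes 61.7%) and all 10 in NSCs (all genes 70.4%). Pcdh12 and Pcdh20 also fit the naming rule but are not among the 18778 genes, which lean towards genes near peaks. The share of 10 of 10 therefore holds for the scored genes only. H3K27me3 was present at 2 of the 10 in neurons (Pcdh7 and Pcdh8) and at 5 in NSCs (these and Pcdh1, Pcdh15 and Pcdh17). The other 5, Pcdh9, Pcdh10, Pcdh11x, Pcdh18 and Pcdh19, had H3K4me3 alone in both.

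Pcdh10, required for the growth of striatal axons in the mouse, had the widest single start-site H3K4me3 peak of the 46 genes. It measured 8000 bp in neurons (360 IP, 93 input reads) and 11000 bp in NSCs (905 IP, 113 input reads). Each stood at the 99.7th percentile of start-site H3K4me3 widths in its own library. No H3K27me3 peak lay within 2 Mb of it in either cell type: the nearest was 2094872 bp away in neurons and 4632472 bp in NSCs. With H3K4me3 peaks up to 1000 bp apart joined, other members were wider than Pcdh10. These were Cdh4 (32400 bp) and Fat4 (13400 bp) in NSCs, and Pcdh9 (10000 bp) and Pcdh17 (9200 bp) in neurons. Pcdh9 had peaks of 5400 bp in both cell types, with 288 IP and 68 input reads in neurons and 515 IP and 52 input reads in NSCs. Pcdh19, the mouse counterpart of a human epilepsy gene on the X chromosome, had 2 small H3K4me3 peaks beside its start in neurons, against a 4000 bp peak over the start in NSCs with 215 IP and 22 input reads. The neuron peaks measured 600 bp, ending 874 bp upstream, with 21 IP and 1 input reads, and 1000 bp, beginning 727 bp downstream, with 34 IP and 3 input reads. The neuron call was not kept when the distance allowed was 500 bp.

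Pcdh8, an activity-induced synaptic protocadherin and the shortest member at 4.52 kb, which shares its peaks with the start of Gm9748, had both marks in both cell types. Its H3K4me3 peak was 3800 bp in neurons, with 141 IP and 33 input reads, and 3200 bp in NSCs, with 146 IP and 29 input reads. In NSCs a second peak of 1200 bp, with 31 IP and 12 input reads, lay just upstream, and joined across the gap the NSC peaks measured 4800 bp. H3K27me3 at Pcdh8 was split in neurons into a 6600 bp peak that ended 893 bp upstream, with 178 IP and 59 input reads, a 5000 bp peak that began 108 bp downstream, with 216 IP and 40 input reads, and a 2600 bp peak beyond it. In NSCs it was a single domain of 14600 bp, with 549 IP and 121 input reads. The length covered within 10 kb of the start was 14.2 kb in neurons and 14.6 kb in NSCs. In neurons this gene was the only member that had both marks when only peaks at an FDR under 1e-20 were used, against 7 members in NSCs (all genes 0.559% in neurons, 4.28% in NSCs). Pcdh7 also had both marks in both cell types. Its H3K4me3 peak measured 4600 bp in neurons (159 IP, 35 input reads) and 8400 bp in NSCs (582 IP, 84 input reads), and its H3K27me3 domain 6000 bp in neurons (116 IP, 52 input reads) and 13200 bp in NSCs (276 IP, 123 input reads).

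Pcdh1, Pcdh15 and Pcdh17 carried both marks in NSCs and H3K4me3 alone in neurons. Pcdh15, a component of the tip links of inner-ear hair cells, had the same H3K4me3 width of 1800 bp in both, with 79 IP and 12 input reads in neurons and 143 IP and 18 input reads in NSCs. In neurons an H3K27me3 peak of 3800 bp, with 82 IP and 30 input reads, began 5690 bp upstream and ended 1891 bp before the start site. In NSCs the domain began at the same bound and reached 5309 bp downstream, 11000 bp in all, with 236 IP and 98 input reads.
Pcdh17, a synaptic protocadherin, had a 4400 bp H3K27me3 peak 2430 bp downstream in neurons, with 95 IP and 58 input reads, and in NSCs a 5600 bp peak 30 bp from the start, with 165 IP and 46 input reads. Its H3K4me3 peak was 2600 bp in neurons (93 IP, 17 input reads) and 6000 bp in NSCs (342 IP, 44 input reads). A second neuron H3K4me3 peak of 6200 bp, with 224 IP and 82 input reads, began 400 bp further on, so the neuron width covers only the first of 2 adjacent peaks; joined, they measured 9200 bp. The nearest H3K27me3 peak to Pcdh1 lay 67893 bp away in neurons, and the NSC peak was the weakest of the 3, 3400 bp with 47 IP and 32 input reads. Its H3K4me3 peak was 2600 bp in neurons (103 IP, 16 input reads) and 3600 bp in NSCs (228 IP, 44 input reads).

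All 3 Celsr genes, which encode the mammalian relatives of the fly planar polarity cadherin Flamingo, had H3K4me3 in both cell types. H3K27me3 accompanied it at Celsr1 and Celsr3 in neurons and at all 3 in NSCs. Celsr3, which guides axon tracts in the mouse brain, had H3K27me3 on both sides of its start in neurons, as a 3600 bp peak that ended 652 bp upstream, with 113 IP and 30 input reads, and a 6600 bp peak that began 1349 bp downstream, with 201 IP and 55 input reads. In NSCs a single domain of 14800 bp lay across the start, with 518 IP and 135 input reads. The neuron H3K4me3 peak, 1800 bp with 49 IP and 19 input reads, ran from 251 bp upstream to 1548 bp downstream, mostly in the interval between the neuron H3K27me3 peaks. In NSCs there were 2 H3K4me3 peaks within 1000 bp of the start, 1600 bp with 66 IP and 15 input reads and 800 bp with 41 IP and 13 input reads, both inside the H3K27me3 domain. Joined, they ran from 1451 bp upstream to 1548 bp downstream, 3000 bp.

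Celsr1, expressed in neural progenitors, had an H3K4me3 peak of 1000 bp in neurons with 29 IP and 6 input reads and of 4800 bp in NSCs with 200 IP and 42 input reads. In neurons a second peak of 1000 bp, with 27 IP and 8 input reads, began 1608 bp downstream, and joined the neuron peaks measured 2600 bp. The H3K27me3 domain measured 3400 bp in neurons (56 IP, 22 input reads) and 6400 bp in NSCs (112 IP, 63 input reads). Celsr2 had 1000 bp of H3K4me3 in neurons (51 IP, 11 input reads) and 4200 bp in NSCs (217 IP, 44 input reads). The nearest H3K27me3 peak to Celsr2 was 102730 bp away in neurons, and in NSCs a 2400 bp peak lay 730 bp upstream, with 43 IP and 22 input reads. With adjacent peaks joined, neuron H3K4me3 at the Celsr starts was thus narrower at all 3 genes, at 0.542 times the NSC width for Celsr1, 0.238 times for Celsr2 and 0.6 times for Celsr3.

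Among the Fat genes, giant cadherins related to the fly tumour suppressor Fat, H3K4me3 marked Fat4 in neurons, and Fat1 and Fat4 in NSCs. None had H3K27me3 at its start in either cell type. The H3K4me3 peak of Fat4 measured 3800 bp in neurons (148 IP, 36 input reads) and 9800 bp in NSCs (716 IP, 99 input reads). The latter was the second widest single peak among members in NSCs. Fat1 had an NSC peak of 3600 bp that began 32 bp downstream of the start, with 135 IP and 40 input reads. No neuron peak lay there. Upstream of Fat1 both cell types had H3K4me3: in neurons peaks of 2600 bp and 1400 bp lay 10769 bp and 14169 bp away, and in NSCs 1 peak of 5800 bp lay 9969 bp away, with 507 IP and 64 input reads. Fat3 had no start-site peak, and its nearest H3K4me3 was a 3600 bp peak 121125 bp upstream in neurons, with 157 IP and 27 input reads, and a 1200 bp peak 106525 bp upstream in NSCs, with 58 IP and 21 input reads.

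**Figure D3:**
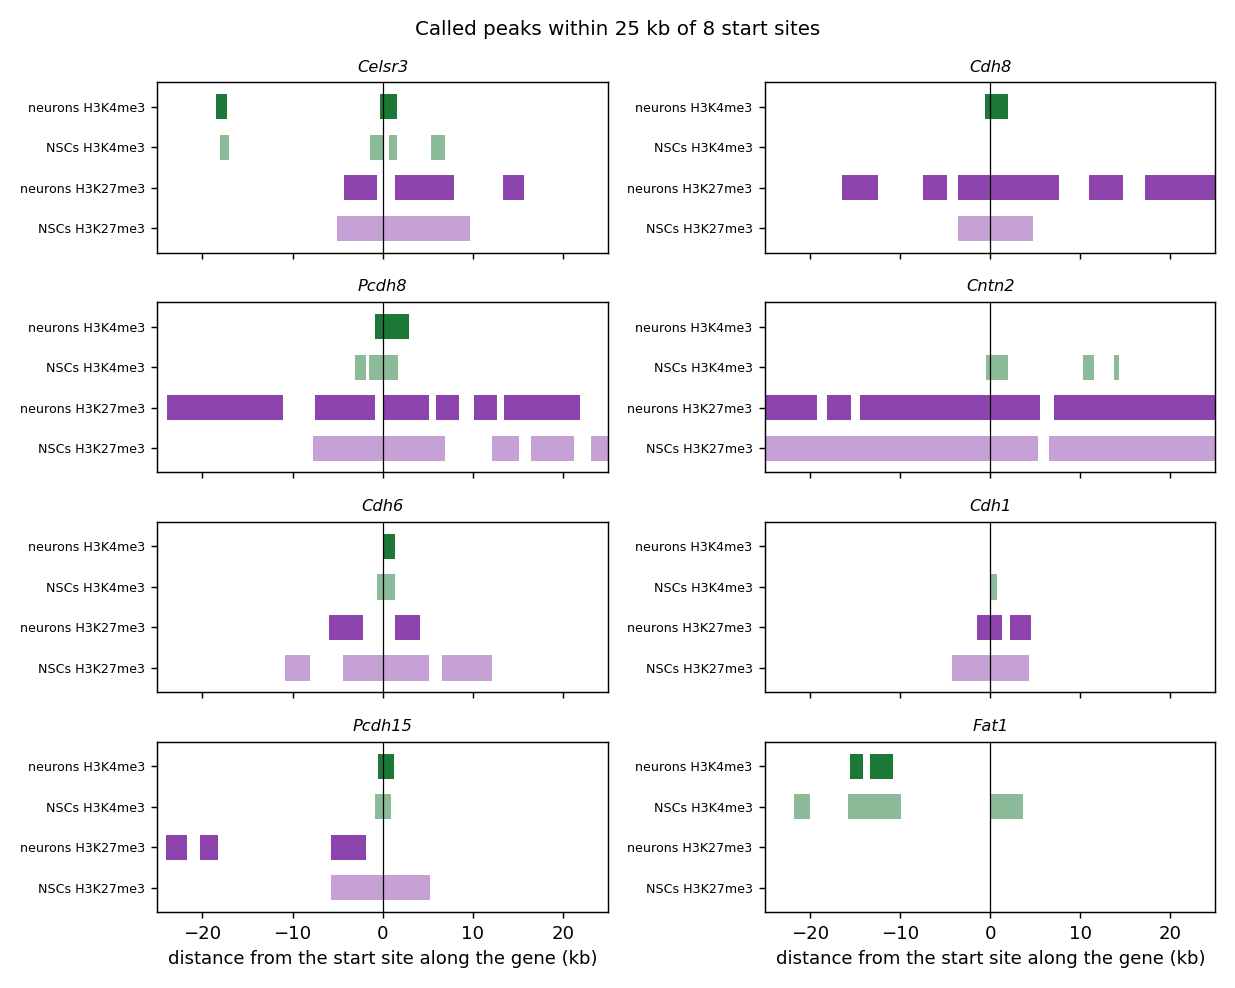
Called peaks around 8 start sites, drawn as bars against distance from the start site along the gene in kb, with neurons above NSCs for H3K4me3 (green) and H3K27me3 (purple); bars that reach the panel's edge continue beyond 25 kb. At Celsr3, Cdh6 and Pcdh15 the neuron H3K27me3 bars stop short of the start site that the NSC bar covers, at Cdh8 both neuron marks cover it, and at Cdh1, Cntn2 and Fat1 there is an NSC H3K4me3 bar at the start and no neuron one.

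The 18 genes with a Cdh symbol, which include Cdh29, a synonym of Cdhr4, were split between states. H3K4me3 marked 10 of the 18 in neurons and 11 in NSCs, and H3K27me3 marked 8 in neurons and 10 in NSCs. Cdh2 (N-cadherin), which holds neuroepithelial cells together at their apical junctions, had H3K4me3 alone in both cell types, with 3600 bp, 181 IP and 37 input reads in neurons and 3800 bp, 462 IP and 43 input reads in NSCs. Cdh4 (R-cadherin), Cdh10 and Cdh24 were likewise marked with H3K4me3 alone in both. Cdh7 and Cdh23 had H3K27me3 alone in both.

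Cdh8, a classical cadherin of the type II class expressed in subsets of brain neurons, was the member with H3K4me3 called in neurons and not in NSCs, 1 of the 17 members unmarked in NSCs (5.88%) against 2.81% of such genes overall. The neuron peak was 2600 bp wide with 74 IP and 24 input reads, and in NSCs no peak was closer than 181772 bp. It was not kept at an FDR under 1e-20, since the deposited FDR of this peak was 2.42e-16. H3K27me3 covered the same start in both cell types, as a domain of 11200 bp in neurons with 309 IP and 110 input reads and of 8400 bp in NSCs with 194 IP and 69 input reads. Over the whole 392 kb gene on chromosome 8 (chr8:101548371-101940371, minus strand, mm9), H3K27me3 peaks covered 30.3% in neurons and 5.45% in NSCs, with 23 peaks away from the start in neurons and 5 in NSCs. The start region is shared with A330008L17Rik.

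Cdh1 (E-cadherin), the epithelial cadherin, was among the 4 members marked with H3K4me3 in NSCs and not in neurons, which were 13.8% of the 29 members marked in NSCs, against 13.6% for all genes. The others were Cdh19, Cntn2 and Fat1. Without chromosome 1 the count was 2 of 26, Cdh1 and Fat1 (7.69%, all genes 13.8%), and with the lists cut to equal length it was 2 of 27, Cdh1 and Fat1 (7.41%, all genes 10.9%). With only peaks at an FDR under 1e-20 it was 10 of 26, among them Fat1 and the 3 Celsr genes (38.5%, all genes 40.1%). The members' share thus lay near or under that of all genes in each of these settings. The NSC peak of Cdh1 was the narrowest of all members, 800 bp with 22 IP and 2 input reads. Scaled by the ratio of 0.399 for peaks with identical bounds, the NSC IP reads come to 8.78 at Cdh1 and 10.8 at Cdh19. At Cntn2 they come to 23.9 and at Fat1 to 53.9. The smallest peak in the neuron H3K4me3 list holds 13 IP reads, and the part of library depth in these losses was not tested. H3K27me3 covered the Cdh1 start in both, 2800 bp in neurons (81 IP, 19 input reads) and 8600 bp in NSCs (185 IP, 71 input reads). Cdh19, expressed in Schwann cell precursors, had an NSC peak of 1000 bp with 27 IP and 6 input reads, and no H3K27me3 at its start in either.

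H3K27me3 was called at the start in NSCs and not in neurons at 9 of the 20 members marked in NSCs (45.0%). The share was 25.3% of all such genes and 26.9% among the other genes over 100 kb. The 20 include members shorter than 100 kb, so the latter comparison is not matched for length. The 9 were Cdh5, Cdh6, Cdh13, Cdh26, Celsr2, Cntn5, Pcdh1, Pcdh15 and Pcdh17. Where absence was taken as no neuron peak within 10 kb, 4 of the 20 were left, Cdh5, Cdh13, Celsr2 and Pcdh1 (20%), and 8.95% of all such genes were. These 4 had the fewest IP reads in NSCs among the 9, between 41 and 57, against a minimum of 25 in that list. The 5 with 114 IP reads or more in NSCs each had a neuron peak within 7364 bp of the start. With only peaks at an FDR under 1e-20 the losses were 5 of 12, Cdh6, Cdh26, Pcdh7, Pcdh15 and Pcdh17, 41.7% against 41% of all such genes, so the members' share did not stand above the others in that setting.

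Cdh6, a type II cadherin of the developing kidney and brain, had H3K27me3 on both sides of its start in neurons. A 3800 bp peak ended 2206 bp upstream, with 90 IP and 34 input reads, and a 2800 bp peak began 1395 bp downstream, with 62 IP and 21 input reads. The NSC domain was 9600 bp with 261 IP and 83 input reads. The neuron H3K4me3 peak of 1400 bp, with 49 IP and 9 input reads, ended 1394 bp downstream, next to the second neuron H3K27me3 peak; the NSC one was 2000 bp with 120 IP and 17 input reads. Cdh26 had a 2200 bp peak 7364 bp downstream in neurons (48 IP, 21 input reads) and a 15000 bp domain in NSCs (211 IP, 109 input reads), with no H3K4me3 at its start in either.
Cdh5 (VE-cadherin), the endothelial cadherin, had 4800 bp in NSCs with 57 IP and 43 input reads and no H3K4me3 call. Cdh13 (T-cadherin), which is lipid-anchored and lacks a cytoplasmic tail, had 2400 bp of H3K27me3 in NSCs, 234 bp upstream, with 41 IP and 20 input reads. Its H3K4me3 peak was 1200 bp in neurons (49 IP, 19 input reads) and 2000 bp in NSCs (145 IP, 16 input reads).

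H3K27me3 was called in neurons and not in NSCs at Cdh18 and Cdh20, 2 of the 26 members unmarked in NSCs (7.69%), against 4.4% of all such genes. At Cdh18, a type II cadherin, the neuron peak was 4000 bp with 65 IP and 40 input reads, and in NSCs no peak was closer than 170819 bp. It was weak: its deposited FDR of 3.14e-05 did not place it in a list cut to the length of the NSC list. At Cdh20, also type II, the neuron domain was 7800 bp with 200 IP and 126 input reads, on chromosome 1. Its H3K4me3 peak was 2400 bp in neurons (104 IP, 40 input reads) and 5600 bp in NSCs (719 IP, 91 input reads). Upstream of Cdh20 lay H3K27me3 peaks of 12000 bp, with 483 IP and 189 input reads, and of 6000 bp, with 247 IP and 90 input reads, in neurons. In NSCs a domain of 18200 bp, 10307 bp upstream, with 516 IP and 240 input reads, covered nearly the same stretch. Neither the Cdh18 nor the Cdh20 call was kept at an FDR under 1e-20.

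Cdh7, Cdh11 and Cdh22 kept H3K27me3 in both cell types with a wider peak in neurons, as did Cdh8, and adjacent peaks joined or not, these 4 were wider in neurons. The domain of Cdh7, a type II cadherin, was 19400 bp in neurons with 532 IP and 254 input reads, and 5400 bp in NSCs with 123 IP and 45 input reads. In NSCs a second domain of 11200 bp, with 217 IP and 121 input reads, began 3992 bp downstream, and the neuron domain, which ended 12591 bp downstream, overlapped both. Cdh11, a cadherin of mesenchyme and bone, had 8000 bp in neurons (142 IP, 57 input reads) and 7000 bp in NSCs (183 IP, 56 input reads), beside H3K4me3 peaks of 1400 bp in neurons (43 IP, 10 input reads) and 1600 bp in NSCs (46 IP, 8 input reads). Cdh22 had 2600 bp in neurons (63 IP, 19 input reads) and 2400 bp in NSCs (41 IP, 16 input reads), with H3K4me3 peaks of 1200 bp in neurons (29 IP, 5 input reads) and 2400 bp in NSCs (191 IP, 23 input reads).

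No peak of either mark lay at the start of 4 of the 6 contactins in neurons and of 3 in NSCs. Cntn1, which forms paranodal junctions with Cntnap1 in myelinated nerve, had H3K4me3 alone in both cell types, 1200 bp in neurons with 52 IP and 10 input reads and 1600 bp in NSCs with 100 IP and 24 input reads. Cntnap1, whose peak also holds the start of Plekhh3, did too, with 1600 bp in neurons (71 IP, 12 input reads) and 2000 bp in NSCs (270 IP, 18 input reads). The other pair of partners, Cntn2 (TAG-1) and Cntnap2 (Caspr2), which sit together beside the paranode, did not share a state.

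Cntn2, an axonal adhesion protein of early projection neurons, had the widest H3K27me3 domain of the 46 genes. It was 20000 bp in neurons, with 677 IP and 233 input reads, and 89000 bp in NSCs, with 2421 IP and 1194 input reads. The NSC domain reached from 83682 bp upstream to 5317 bp downstream of the start. In neurons its upstream part was broken into further peaks, the nearest of 2600 bp and 19200 bp, and within 10 kb of the start the covered length was 18.4 kb in neurons and 18.8 kb in NSCs. Cntn2 (chr1:134406002-134439517, minus strand, mm9) lies where input reads were raised. H3K4me3 was called in NSCs alone, as 2400 bp with 60 IP and 27 input reads. Cntn5 had a 2400 bp H3K27me3 peak that began 1376 bp downstream in neurons, with 38 IP and 15 input reads, and in NSCs H3K27me3 alone at its start, 7800 bp with 114 IP and 71 input reads.

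No peak of either mark lay at the start in either cell type for 10 members (21.7%, all genes 16.7%): Cdh29, Cntn3, Cntn4, Cntn6, Cntnap2, Cntnap5a, Cntnap5b, Dsg2, Fat2 and Fat3. Some were near the limit of 1000 bp. In NSCs, an H3K4me3 peak lay 1611 bp from Cdh29 and an H3K27me3 peak 1734 bp from Fat2; the closest calls outside the limit in neurons were the H3K27me3 peaks of Cntn5 at 1376 bp, Cdh6 at 1395 bp and Pcdh18 at 1404 bp. Just inside it were the H3K27me3 peaks of Cdh23 at 762 bp and Cdh22 at 754 bp in neurons and of Celsr2 at 730 bp in NSCs. The scored start is 1 annotated start per gene, so a gene that uses another can count as unmarked.

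Where H3K27me3 and H3K4me3 met, the members differed between the cell types. Of the 14 members with both marks in NSCs, 6 had both in neurons (all such genes 36.9%), 6 had H3K4me3 alone (20.9%) and 2, Cdh1 and Cntn2, had H3K27me3 alone (37.3%). The 6 with H3K4me3 alone were Cdh6, Cdh13, Celsr2, Pcdh1, Pcdh15 and Pcdh17.

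A closer view, chosen after these values were seen, took the 9 members with H3K4me3 at the start in both cell types and H3K27me3 within 10 kb in both: Cdh6, Cdh11, Cdh22, Celsr1, Celsr3, Pcdh7, Pcdh8, Pcdh15 and Pcdh17. Only the single H3K4me3 peak nearest the start was scored. The share of this peak that lay inside H3K27me3 peaks had a median of 11.1% in neurons and 100% in NSCs. It was lower in neurons at 7 of the 9, namely all but Cdh11 and Celsr1. At Cdh6, Cdh22, Pcdh15 and Pcdh17 it was 0% in neurons; in NSCs it was 58.3% at Cdh22, 83.3% at Pcdh17 and 100% at the other 2. Celsr3 had 11.1% in neurons and 100% in NSCs, Pcdh7 had 60.9% in neurons and 95.2% in NSCs, and Pcdh8 had 73.7% in neurons and 100% in NSCs. Cdh11 had 100% in both, and Celsr1 had 100% in neurons and 91.7% in NSCs. Adjacent H3K4me3 peaks were left out, which matters at Pcdh17 and Celsr1. The second neuron peak of Pcdh17, 1430 to 7629 bp downstream, spanned the neuron H3K27me3 peak at 2430 to 6829 bp. The second neuron peak of Celsr1 ended 2607 bp downstream, beyond the H3K27me3 domain, which ended at 2207 bp. The shares with adjacent peaks joined were not computed. Among all 731 genes so defined whose peaks overlapped in NSCs, the share was lower in neurons at 364 (49.8%) and its median was 75.0% in neurons and 100% in NSCs.

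Over the 10 kb on each side of the start, H3K27me3 peaks covered less in neurons at 18 members and more at 7, and none at all in either cell type at 21 (45.7%, all genes 65.7%). Of the 25 with any, the 18 were 72.0% and the 7 were 28.0%, against 65.3% with less and 31.7% with more in neurons over the 6438 such genes of all. The largest differences toward NSCs were at Cdh26, with 2.2 kb in neurons and 13.4 kb in NSCs, and Cntn5, with 2.4 kb in neurons and 13.4 kb in NSCs. The 7 with more in neurons were Cdh7, Cdh8, Cdh11, Cdh18, Cdh20, Cdh22 and Pcdh18. Of these, 6 have a Cdh symbol, whereas Cdh1, Cdh5, Cdh6, Cdh13, Cdh23 and Cdh26 had less in neurons. Cdh7 and Cdh20 lie on chromosome 1, where input reads were denser. At Cdh20 the lengths were 9.49 kb in neurons and 0 kb in NSCs. At Pcdh18 a neuron peak of 2400 bp, with 45 IP and 29 input reads, lay 1404 bp downstream of the start.

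**Figure D4:**
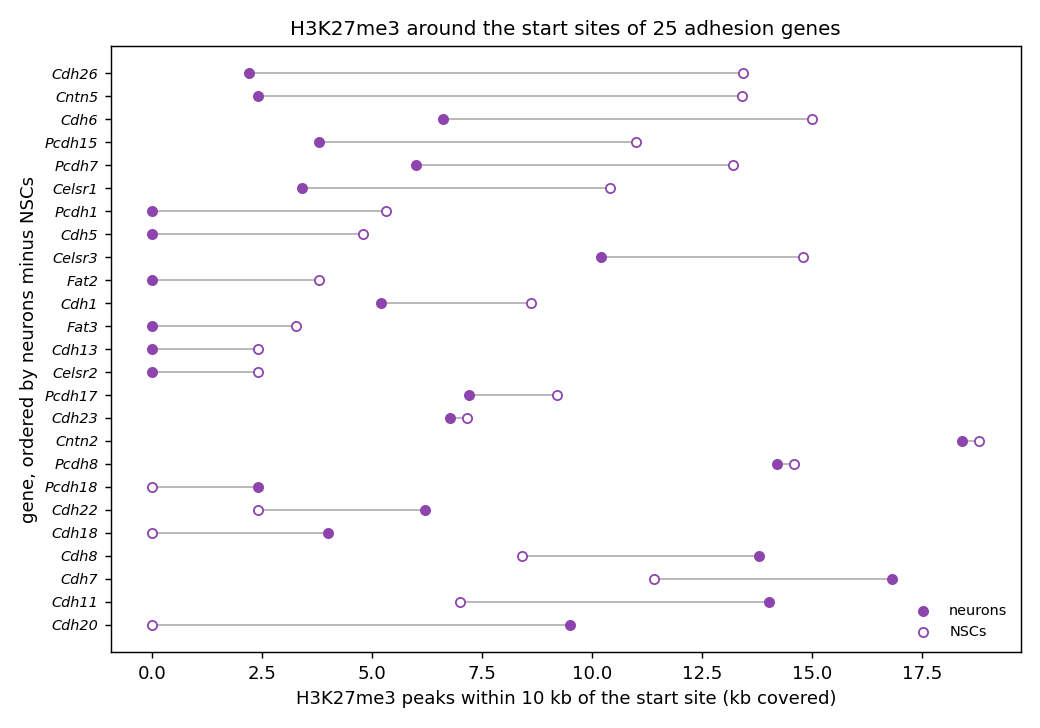
Length of H3K27me3 peaks within 10 kb on each side of the start site in kb, for the 25 members with any, ordered by the neuron minus NSC difference (filled points neurons, open points NSCs, 1 library each). The top 18 genes, from Cdh26 to Pcdh8, have the filled point on the left, and the bottom 7, from Pcdh18 to Cdh20, have it on the right.

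Start-site H3K4me3 peaks of members had a median width of 2300 bp in neurons and 3600 bp in NSCs, against 1800 bp in neurons and 2200 bp in NSCs for all marked genes. Of the 25 members marked in both cell types, the nearest peak was narrower in neurons at 21 (84.0%, all genes 81.0%), the same at Pcdh9 and Pcdh15, and wider at Pcdh8 and Celsr3. With peaks up to 1000 bp apart joined first, 22 were narrower (88.0%, all genes 80.7%), Pcdh8 and Celsr3 among them at 0.792 and 0.6 times the NSC width. Pcdh9 (1.85 times) and Pcdh17 (1.53 times) were then wider. The lowest joined ratio was 0.0741 at Cdh4, with 2400 bp in neurons and 32400 bp in NSCs. The median ratio of neuron to NSC width was 0.714, close to the 0.733 of all 11424 genes marked in both, and with joined peaks 0.722 against 0.75. H3K27me3 domains had a median of 5000 bp in neurons and 7400 bp in NSCs, against 5000 bp in neurons and 8400 bp in NSCs for all marked genes. For the 11 members with it in both cell types the nearest peak was narrower in neurons at 7 and the median ratio was 0.531 (all genes 0.662), ranging between 0.225 at Cntn2 and 3.59 at Cdh7. This did not hold with joined peaks: 5 of the 11 were then narrower in neurons and the median ratio was 1.08 (all genes 0.73), with Pcdh8 at 1.1 times and Cdh23 at 1.47 times the NSC width.

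**Figure D5:**
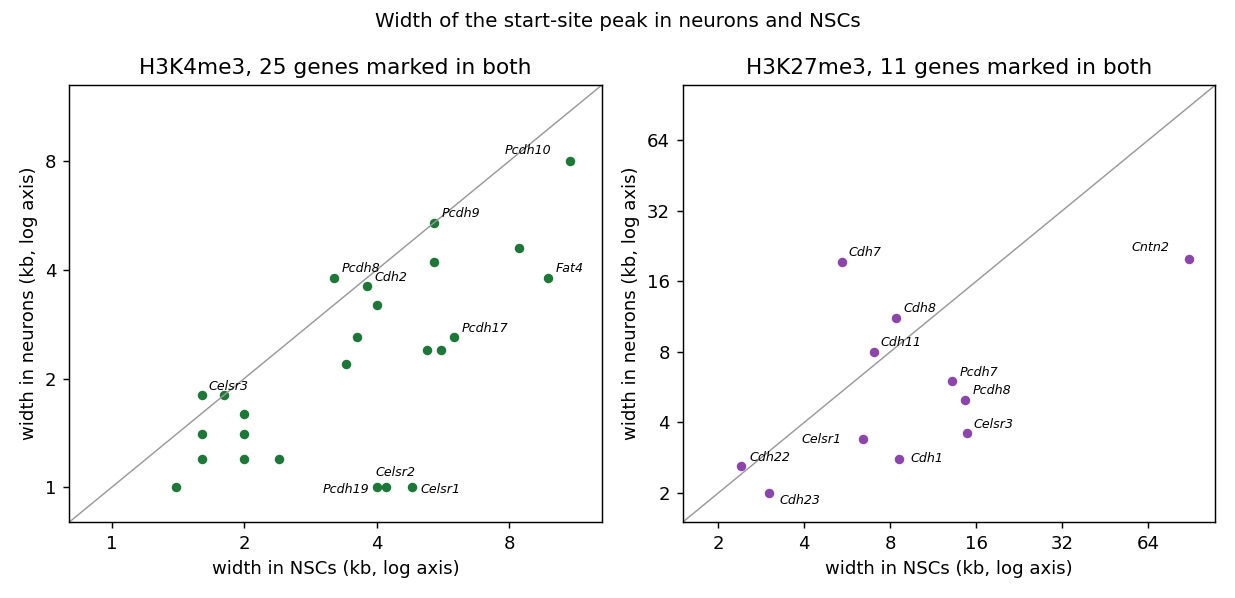
Width of the single peak nearest the start site in neurons (vertical) against NSCs (horizontal), in kb on log axes, for members marked in both cell types, with the line of equal width. For H3K4me3 21 of 25 points lie below the line and Pcdh10 is the widest; for H3K27me3 Cdh7, Cdh8, Cdh11 and Cdh22 lie above it and 7 genes below.

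Peaks also lay inside the genes, away from the start. For H3K4me3 they numbered 33 in neurons, in 19 members (41.3%), and 106 in NSCs, in 26 members (56.5%); 38.2% of the other genes over 100 kb had one in neurons and 70.0% in NSCs. For H3K27me3 the order was the other way, with 121 such peaks in 24 members (52.2%) in neurons and 77 in 16 members (34.8%) in NSCs, and 42.7% of the other long genes had one in neurons and 37.4% in NSCs. The number in neurons was 0.311 times that in NSCs for H3K4me3 and 1.57 times for H3K27me3, near the 0.287 and 1.44 times of all genes. Per Mb of gene, members held 2.06 such H3K4me3 peaks in neurons and 6.61 in NSCs. Other genes over 100 kb held 3.26 and 12.4, and all genes 3.75 and 13.1. For H3K27me3 members held 7.54 in neurons and 4.8 in NSCs, other long genes 13.8 and 9.37, and all genes 13.2 and 9.17. The members thus held fewer per Mb in each library. Cdh4 had 1 H3K4me3 peak of this kind in neurons and 25 in NSCs, and Cdh13 had 3 in neurons and 24 in NSCs. For Cdh4, H3K4me3 peaks, the start-site one included, covered 0.627% of the gene in neurons and 14.0% in NSCs. Cdh23, the partner of Pcdh15 in tip links, had 18 H3K27me3 peaks of this kind in neurons and 22 in NSCs. With any start-site peak counted too, H3K27me3 covered 15.5% of its length in neurons and 29.0% in NSCs. Its start-site peak was 2000 bp in neurons, or 4400 bp joined with its neighbour, and 3000 bp in NSCs. Cntnap2, the longest member at 2240 kb, had no start-site mark but 19 H3K27me3 peaks inside the gene in each cell type, covering 2.36% in neurons and 4.49% in NSCs. Cntnap5a had 10 in neurons and 1 in NSCs. The whole lists differ in the same directions, with 14846 H3K4me3 peaks in neurons and 30416 in NSCs, and 36053 H3K27me3 peaks in neurons and 26539 in NSCs. The part of list length in these counts was not tested.

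Genes that work with or regulate these adhesion proteins were scored in the same way, together with other genes of the cadherin superfamily. Of 45 listed genes 40 were in the tables. H3K4me3 marked 31 of them in neurons (77.5%, all genes 61.7%) and 36 in NSCs (90.0%, all genes 70.4%), and H3K27me3 marked 12 in neurons (30.0%, all genes 17.9%) and 14 in NSCs (35.0%, all genes 19.2%). The 5 with H3K4me3 in NSCs alone were 13.9% of those 36, near the 13.6% of all genes. The 7 scored superfamily genes, Clstn1, Clstn2, Clstn3, Cdhr1, Cdhr2, Cdhr3 and Ret, are relatives and not partners. They held 5 of the 12 H3K27me3 calls in neurons and 6 of the 14 in NSCs, so those shares do not describe the partners alone. The catenins, which link classical cadherins to actin, had H3K4me3 at 6 of 7 in both cell types. The exception was Ctnnb1, whose peaks lay 4266 bp in neurons and 3666 bp in NSCs from the scored start. All 7 scored partners of contactins, which include Ptprz1, Nrcam, Chl1 and Ncam1, had H3K4me3 in both, where the contactins themselves had it at 1 of 6 in neurons and 2 of 6 in NSCs. For the planar polarity partners of the Celsr proteins H3K4me3 was found at 8 of 9 in neurons and 9 of 9 in NSCs, with Fzd6 marked in NSCs alone. The desmosomal plaque genes had it at 2 of 4 in neurons and 4 of 4 in NSCs, with Dsp and Pkp2 marked in NSCs alone beside H3K27me3 in both cell types. Dchs1, the ligand of Fat4, was marked with H3K4me3 in NSCs alone (1800 bp, 107 IP and 14 input reads) and with H3K27me3 in both. No listed gene was marked with H3K4me3 in neurons alone. Of the 4 scored repressors of Cdh1, Snai2, Zeb1, Zeb2 and Twist1, all had H3K4me3 in both cell types, and Snai2 alone had H3K27me3, in both.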

How the data were processed

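ChIP-seq was done on sorted neurons and NSCs, with 1 library per antibody and cell type and 2 inputs, whose own files were not used here. Reads were handled with FastQC, Bowtie, SAMtools and SICER on mm9, per the submitters' processing notes, with versions and parameters not given in the sources used here. The authors deposited, for each library, a SICER peak list and a gene table, both with the count of IP and control reads per peak, the p-value and FDR, and the fold, a ratio to input; all are the authors' values. All listed peaks have an FDR under 0.001, and bounds move in steps of 200 bp.

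A start site was the start of a plus-strand and the end of a minus-strand gene. The nearest peak within 1000 bp marked a gene, and its width was end minus start plus 1. Widths with peaks up to 1000 bp apart joined are given where they turn a direction or a ranking, a use chosen after seeing the data. A loss is a call in NSCs without one in neurons, a gain the reverse. Shares of members are set beside those of all 18778 genes; no test is possible with 1 library per group. The 18778 genes are those the tables name, so they lean towards genes near peaks. The members, lists and printed promoters were chosen with earlier results of these data known. Values are given for members whose call differed, that had both marks in NSCs or that had the widest peaks. The distance step was tested on simulated peaks, where 0 of 1000 distances differed from a brute-force search. Other distances, thresholds and peak sets were tried. Promoter sequences are from RefSeq (GRCm38.p6). Python 3.11.15, pandas 2.3.3, numpy 2.4.6 and matplotlib 3.10.9 were used.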

Additional observations from a re-analysis of the deposited data

How the results depend on the processing

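With 1 library per cell type and antibody, none of these counts has a replicate check. No paired analysis was possible because each cell type had 1 library per antibody and the labels give no replicate numbers. Of 92 alternative values for 16 results, 69 stayed within 1.5 times the main count or kept the width, and 23 did not. Distances of 500 and 2000 bp moved none beyond 1.5 times. H3K27me3 losses were 11 of 19 at 500 bp (57.9%, all genes 26.7%) and 7 of 21 at 2000 bp (33.3%, all genes 23.5%). At 2000 bp Cdh6, Cntn5 and Pcdh15 left the list of losses and Fat2 joined it. Both marks stood at 6 members in neurons at 500 bp and at 11 at 2000 bp, against 8. Counting shared peaks once could move none, because no member shared a start-site peak with another member. The unchanged values of that setting are among the 69. At an FDR under 1e-20, H3K4me3 in neurons fell to 16 members (34.8%, all genes 40%) and H3K27me3 to 8 in neurons (17.4%, all genes 9.65%) and 12 in NSCs (26.1%, all genes 13.1%). Losses were then 10 of 26 for H3K4me3 (38.5%, all genes 40.1%) and 5 of 12 for H3K27me3 (41.7%, all genes 41%), and gains 0 of 20 (all genes 0.556%) and 1 of 34 (2.94%, all genes 2.22%). Both marks stood at 1 in neurons (2.17%, all genes 0.559%) and 7 in NSCs (15.2%, all genes 4.28%). By the authors' gene tables, which hold different FDR limits and often name a farther peak, H3K4me3 in neurons was 13 (28.3%, all genes 51.6%) and H3K27me3 3 in neurons (6.52%, all genes 5.09%) and 10 in NSCs (21.7%, all genes 7.74%). H3K4me3 losses were then 10 of 21 (47.6%, all genes 18.2%) and gains 2 of 25 (8%, all genes 9.08%), H3K27me3 gains 1 of 36 (2.78%, all genes 1.92%), and both marks 0 in neurons (all genes 0.831%) and 6 in NSCs (13%, all genes 2.32%). With lists of equal length, H3K4me3 losses were 2 (7.41%, all genes 10.9%) and H3K27me3 gains 1 (3.85%, all genes 3.27%); without chromosome 1 they were also 2 (7.69%, all genes 13.8%) and 1 (4.55%, all genes 4.13%). With absence within 10 kb, H3K27me3 losses were 4 (20%, all genes 8.95%), and within 5 kb, a limit chosen after seeing the data, 5 (25.0%, all genes 12.4%). Joining adjacent peaks, also chosen so, gave 22 members narrower in neurons for H3K4me3, against 21, and 5 for H3K27me3, against 7. The cause of these moves was not tested.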
